A study of Mus musculus with 24 samples.

Results

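Matriptase (St14), prostasin (Prss8), their membrane-anchored inhibitors (Spint1 and Spint2), the transmembrane proteases Tmprss2 and Tmprss4, and the adhesion protein gene Epcam were followed through 24 RNA-seq libraries of cultured mouse lung adenocarcinoma cells. The 7 genes were taken by symbol, and the set counts as chosen by measured values, since the rise of St14 and Epcam under siChchd10 in S/S cells was known when it was drawn up. Each had 1 row among 38937 genes in a table of 8 shRNA libraries and 1 row among 39310 genes in a table of 16 siRNA libraries. After the filter on low counts, 7 of them stood among the 18138 genes tested in the siRNA table and 6 among the 14697 tested in the shRNA table, where Tmprss4 did not pass. Tmprss4 passed in the siRNA table through its counts in 1 group, A/A siChchd10.

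The cells were primary lung tumour cells, sorted by the submitters as GFP-positive and CD45-negative and then cultured. They fell into 6 groups of 4 libraries. In the shRNA table, eIF2α S/S cells carried an shRNA against Atf4 (S/S shAtf4) or a scramble shRNA (S/S shControl). In the siRNA table, eIF2α A/A cells and eIF2α S/S cells had each received siChchd10 or siControl. As background, S/S is the wild-type form of the translation initiation factor eIF2α, A/A replaces the serine at which it is phosphorylated in the integrated stress response, ATF4 is the transcription factor translated during that response, and CHCHD10 is a mitochondrial intermembrane space protein. The genotype field of the labels names the siControl libraries of both genotypes as wild type, so S/S and A/A were taken from the sample titles. The labels give no driver alleles, no number of tumours or clones behind a group and no age of the animals, and separate cultures for the 4 libraries within a group are not mentioned, so p-values measure the spread between these samples, which may be technical.

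Matriptase is a transmembrane serine protease of epithelial cells, and prostasin is a serine protease held to the cell surface by a lipid anchor. Each can activate the other, and both are held in check by the Kunitz-type inhibitors that Spint1 (HAI-1) and Spint2 (HAI-2) encode. In epithelia the network acts on growth factor precursors, the epithelial sodium channel and the receptor PAR2. Matriptase also cuts EPCAM, a surface glycoprotein that binds and stabilises claudin-7, and in the mouse gut HAI-2 protects EPCAM from that cut. TMPRSS2 and TMPRSS4 belong to the same transmembrane protease family, and TMPRSS2 is best known for activating viral surface proteins on airway cells.

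On GRCm38.p6, St14 lies on chromosome 9 from 31089402 to 31131853, Tmprss4 on chromosome 9 from 45172726 to 45204092, Prss8 on chromosome 7 from 127925716 to 127930104, Spint2 on chromosome 7 from 29256323 to 29281912 and Tmprss2 on chromosome 16 from 97564682 to 97611195, each on the minus strand. Spint1 lies on chromosome 2 from 119237362 to 119249527 and Epcam on chromosome 17 from 87635979 to 87651129, both on the plus strand. Exons of Prss8 share 122 bases (6.59% of its exon length) with Kat8 on the other strand, and exons of Tmprss4 share 412 bases (15.9%) with the antisense gene Gm17099. The sources used here do not give the strand setting of the counting, and reads in those stretches cannot be assigned.

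RefSeq promoter windows (GRCm38.p6, 250 bases before to 50 bases after the annotated start, given on the gene's own strand) were at hand for 4 of the 7 genes, and those of Epcam, Spint1 and Spint2 are shown because their letters differ in a way that can be set beside the values of the transcription factors named further on. Capitals mark 2 kinds of letters, searched on both strands. CACCTG, which appears as CAGGTG where it lies on the other strand, is the E-box read by the ZEB and SNAI repressors of epithelial genes, and ACCGGT, which reads the same on both strands, is a core of the site of the grainyhead-like activators. The core was chosen after these promoters had been read.
Epcam, chr17:87635729-87636028, plus strand: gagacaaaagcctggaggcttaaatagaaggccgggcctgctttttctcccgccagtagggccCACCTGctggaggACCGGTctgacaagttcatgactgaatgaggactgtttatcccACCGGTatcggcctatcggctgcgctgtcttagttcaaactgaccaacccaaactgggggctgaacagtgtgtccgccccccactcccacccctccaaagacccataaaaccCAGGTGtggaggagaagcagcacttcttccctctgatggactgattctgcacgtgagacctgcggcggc
Spint1, chr2:119237110-119237409, plus strand: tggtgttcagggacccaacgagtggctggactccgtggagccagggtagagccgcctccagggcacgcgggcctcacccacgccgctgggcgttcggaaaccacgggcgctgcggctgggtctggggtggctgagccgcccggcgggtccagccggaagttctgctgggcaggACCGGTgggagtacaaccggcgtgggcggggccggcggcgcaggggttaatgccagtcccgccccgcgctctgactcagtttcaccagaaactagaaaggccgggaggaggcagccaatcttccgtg
Spint2, chr7:29281928-29282227, minus strand: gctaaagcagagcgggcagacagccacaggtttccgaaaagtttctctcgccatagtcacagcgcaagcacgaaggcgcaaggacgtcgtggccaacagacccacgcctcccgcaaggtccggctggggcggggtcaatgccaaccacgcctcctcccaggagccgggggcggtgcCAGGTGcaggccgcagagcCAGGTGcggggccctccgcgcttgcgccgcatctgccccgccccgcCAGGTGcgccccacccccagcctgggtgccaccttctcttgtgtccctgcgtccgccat
The Epcam window held the core at -174 and -131 and the E-box at -187 and -19 relative to the start, the Spint1 window held the core at -77, and the Spint2 window held the E-box at -74, -55 and -9. Among 32851 promoter windows of that length, 20.2% held CACCTG and 2.33% held ACCGGT on either strand. The Tmprss2 window held neither, and none of these 4 windows held AACCNGTT (a longer grainyhead-like motif, in 2.09% of windows), CAAAGTCCA (HNF4A, 0.475%) or TGATGNAA (the ATF4 and C/EBP element, 3.97%) on either strand. A match is a description of letters, and the absence of these letters from the windows says nothing of the factors.

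Library totals, in units of 1e6 counts, were 14.1 to 59.9 in S/S shAtf4 and 17.5 to 70.9 in S/S shControl. They were 47.5 to 75.4 in A/A siChchd10, 46 to 51.9 in A/A siControl, 47.5 to 51.9 in S/S siChchd10 and 42.9 to 53 in S/S siControl. The 5 epithelial markers Krt8, Krt18, Krt19, Krt7 and Cdh1 summed to 3927 to 7583 CPM (counts per 1e6 counts, TMM scaled) per library over all groups, against 1.59 to 4.73 CPM for 7 leukocyte markers, 2.23 to 18.4 CPM for 6 fibroblast markers and 0.562 to 3.09 CPM for 5 endothelial markers. Ptprc and Cd3e were at 0 in both shRNA groups. The lung lineage factor Nkx2-1 had 126 to 137 CPM in A/A siChchd10, 110 to 118 CPM in A/A siControl, 31.2 to 37.9 CPM in S/S siChchd10 and 36.8 to 38.1 CPM in S/S siControl, but no count in any shRNA library, and the alveolar gene Sftpc exceeded 0.11 CPM in no group other than A/A siChchd10 (3.55 to 4.23 CPM).

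Some libraries stood apart. In the siRNA table, 4 genes had at least 20 CPM in every S/S library and at most 0.1 CPM in every A/A siChchd10 library. Their RNAs are called S/S-type below, and the shRNA libraries took no part in choosing them. They were present in A/A siControl replicate 1 at 6.29% and in replicate 2 at 0.933% of their mean S/S siControl level. In A/A siControl replicates 3 and 4 they were at most at 0.041% of that level. Fold changes of the 7 genes that rest on A/A siControl are therefore also given without replicates 1 and 2, with Tmprss4 given by its counts per library, and those of other genes are given on all libraries. In the shRNA table the replicate 4 libraries of both groups lay apart on the first principal component, and the fold changes of the 6 genes tested there are also given without them. The targets had fallen where they were aimed at. Chchd10 had 1.37, 1.75, 2.04 and 2.15 CPM in A/A siChchd10 against 10.2, 9.52, 7.96 and 7.99 CPM in A/A siControl, and in S/S cells 6.69, 5.34, 6.33 and 6.82 CPM with siChchd10 against 40.6, 45.5, 38.1 and 46.0 CPM with siControl. Atf4 had 302, 237, 319 and 225 CPM in S/S shAtf4 against 564, 835, 817 and 497 CPM in S/S shControl.

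Per kilobase of merged exons, Spint2 was the most abundant of the 7 mRNAs in every group, at 73.4 ± 4.04 CPM per kilobase in A/A siChchd10, 60.7 ± 2.24 in A/A siControl, 53.9 ± 2.05 in S/S siChchd10, 39.6 ± 1.79 in S/S siControl, 40.3 ± 2.85 in S/S shAtf4 and 44.8 ± 4.12 in S/S shControl (SD, n = 4 each). Which mRNA came next differed between groups. In A/A siChchd10 cells Tmprss2 (5.32 ± 0.205 CPM per kilobase) and Prss8 (5.14 ± 0.489) came next and did not differ beyond their spread, followed by Epcam (1.17 ± 0.253), Spint1 (0.375 ± 0.0505), Tmprss4 (0.252 ± 0.0897) and St14 (0.0456 ± 0.00667). In A/A siControl cells Tmprss2 came next (4.10 ± 0.262 CPM per kilobase), then Epcam (0.654 ± 0.129) and Prss8 (0.470 ± 0.0521), then Spint1 (0.0839 ± 0.0553), St14 (0.0248 ± 0.0136) and Tmprss4 (0.00952 ± 0.00961), whose spreads meet those of their neighbours. In S/S siChchd10 cells Epcam came next (15.8 ± 0.768 CPM per kilobase), then Tmprss2 (4.19 ± 0.376), Spint1 (3.16 ± 0.279), Prss8 (1.70 ± 0.128), St14 (1.46 ± 0.0532) and Tmprss4 (0.0220 ± 0.0339). In S/S siControl cells the order after Spint2 was Epcam (4.07 ± 0.273 CPM per kilobase), Tmprss2 (3.17 ± 0.0758), Spint1 (1.25 ± 0.146), Prss8 (0.596 ± 0.0487), St14 (0.315 ± 0.0353) and Tmprss4 (0.00179 ± 0.00357).

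Parts of this order depend on the length used. Per kilobase of the longest principal transcript, Spint2 was again first in every group, but Tmprss2 and Prss8 lay apart in A/A siChchd10 cells, at 12.3 and 5.14 CPM per kilobase. By that length St14 was above Prss8 in S/S siChchd10 cells (3.42 and 1.70 CPM per kilobase) and in S/S siControl cells (0.737 and 0.596), and Tmprss2 was above Epcam in S/S siControl cells (7.31 and 4.37).

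The S/S controls of the 2 tables, which were scaled separately and are set side by side without a test, did not have the same levels. S/S shControl cells had 37.9 ± 3.03 CPM of Spint1, 36.7 ± 8.71 of Epcam, 11.2 ± 0.462 of St14 and 7.77 ± 2.11 of Prss8, and S/S siControl cells had 3.45 ± 0.404, 8.92 ± 0.599, 2.40 ± 0.269 and 1.10 ± 0.0902 CPM of the same genes (SD, n = 4 each). Tmprss2 ran the other way, at 0.830 ± 0.350 CPM in S/S shControl and 23.1 ± 0.554 CPM in S/S siControl, and Spint2 was close, at 204 ± 18.8 and 180.2 ± 8.17 CPM in S/S shControl and S/S siControl. The endodermal factor Hnf4a had 2.57 to 5.26 CPM in S/S shControl and 212 to 242 CPM in S/S siControl, and Nkx2-1 differed as given above. In bulk RNA of this kind, fewer cells that express a gene and less RNA per cell cannot be told apart.

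**Figure D1:**
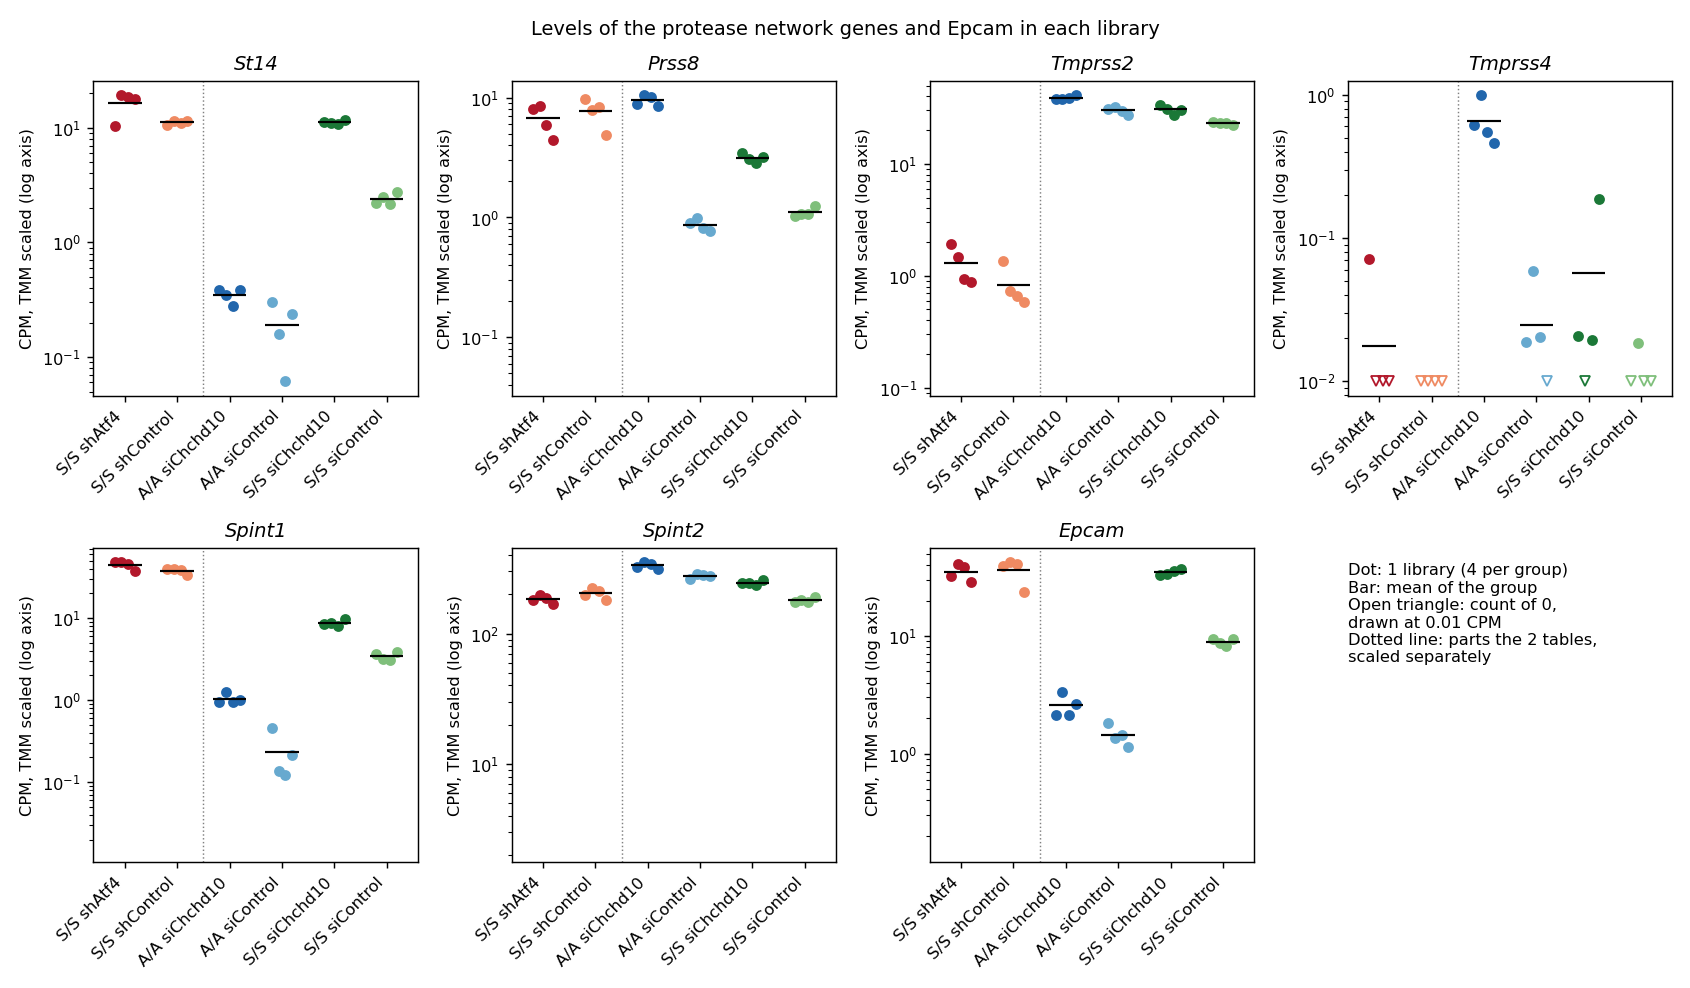
Level of each gene (CPM after TMM scaling, log axis) in every library, 4 libraries per group, with the group mean as a bar; an open triangle is a count of 0. St14, Spint1 and Epcam sit lowest in A/A siControl and A/A siChchd10, Prss8 and Tmprss4 sit high in A/A siChchd10 among the siRNA groups, and Tmprss2 is at most 1.92 CPM in the shRNA libraries.

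The siChchd10 comparison in A/A cells asks what loss of Chchd10 did to these genes in cells whose eIF2α cannot be phosphorylated at that site. Tmprss4 passed the filter through the knockdown group itself and is described without a test. The other 6 genes rose, in a comparison in which 53.7% of the 18138 genes tested passed (9748 genes, 4806 higher and 4942 lower; edgeR quasi-likelihood test, Benjamini-Hochberg adjusted p under 0.05). The sizes differed widely among the 6, with a median log2 fold change of 0.86 against -0.01 over all genes. Libraries of the groups did not overlap for 5 of the 6 genes, and those of St14 did. The share of all genes tested that separate in this way was not counted, so separation is not shown to be particular to these genes.

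Prss8 rose most among the genes with more than a few counts. It had 8.94, 10.5, 10.1 and 8.59 CPM in A/A siChchd10 and 0.908, 0.988, 0.817 and 0.771 CPM in A/A siControl. The 4 knockdown libraries all lay far above the 4 controls, a log2 fold change of 3.44 (SE 0.117, adjusted p = 4.91e-19), or 10.9-fold, the 40th largest rise among the 18138 genes. Without A/A siControl replicates 1 and 2 it was 3.59 (adjusted p = 8.08e-16). Tmprss4 had 30, 51, 26 and 35 counts in A/A siChchd10 and 1, 3, 1 and 0 counts in A/A siControl. The summed counts gave a ratio of 25.3 after scaling, with a 95% exact interval of 10.6 to 79.1 that covers counting error only. Tmprss4 was thus near its floor in the control cells and low, at 0.654 ± 0.232 CPM (SD, n = 4), in the knockdown cells.

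St14, whose product activates prostasin, rose less. It had 0.388, 0.349, 0.277 and 0.381 CPM in A/A siChchd10 and 0.303, 0.158, 0.0613 and 0.236 CPM in A/A siControl, or 79 against 38 counts in all. The lowest knockdown library lay below the highest control library. The log2 fold change was 0.88 (SE 0.290, adjusted p = 0.0119), and leaving out A/A siControl replicate 3 ended the call (0.60, adjusted p = 0.0622). Without A/A siControl replicates 1 and 2 it was 1.26 (adjusted p = 0.00738). Tmprss2 had 37.9, 37.6, 38.9 and 40.9 CPM in A/A siChchd10 and 30.8, 31.9, 29.7 and 27.4 CPM in A/A siControl. That separation was complete but small, a log2 fold change of 0.37 (SE 0.0558, adjusted p = 2.00e-06), or 0.45 (adjusted p = 5.06e-06) without A/A siControl replicates 1 and 2.

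Of the inhibitors, Spint1 had 0.960, 1.241, 0.936 and 1.01 CPM in A/A siChchd10 and 0.454, 0.138, 0.123 and 0.214 CPM in A/A siControl. The highest control library, replicate 1, is also the one with the largest share of S/S-type RNA. The log2 fold change was 2.13 (SE 0.251, adjusted p = 4.41e-08), 4.37-fold, and 2.63 (adjusted p = 4.80e-08) without A/A siControl replicates 1 and 2. Spint2 had 328, 355, 344 and 313 CPM in A/A siChchd10 and 262, 285, 283 and 276 CPM in A/A siControl, a log2 fold change of 0.27 (SE 0.0441, adjusted p = 6.50e-06), and 0.27 (adjusted p = 2.50e-04) without those 2 libraries. Epcam had 2.14, 3.32, 2.15 and 2.67 CPM in A/A siChchd10 and 1.82, 1.36, 1.43 and 1.14 CPM in A/A siControl. Its libraries separated by a narrow margin, with a log2 fold change of 0.84 (SE 0.137, adjusted p = 8.93e-06), or 1.02 (adjusted p = 1.74e-05) without A/A siControl replicates 1 and 2.

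Between genotypes, A/A siControl cells were compared with S/S siControl cells, a comparison that shares its S/S libraries with the S/S knockdown comparison described further on. In it 70.2% of the 18138 genes tested passed (12741 genes, 6453 higher and 6288 lower), so a call by itself says little. Among the 7 genes 2 rose, 4 fell and 1 did not pass. The inhibitor Spint1, the protease St14 and Epcam were far lower in A/A cells, and Tmprss2 and Spint2 somewhat higher. An effect of the genotype cannot be told apart from other differences between the A/A and S/S cultures. This also holds where the siChchd10 effects of the genotypes are compared. The S/S controls of the shRNA and siRNA tables differed in Spint1, St14, Epcam and Tmprss2 as well, as given above.

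St14 had 0.303, 0.158, 0.0613 and 0.236 CPM in A/A siControl and 2.20, 2.48, 2.18 and 2.75 CPM in S/S siControl. Every A/A library lay below every S/S library, at a log2 fold change of -3.64 (SE 0.207, adjusted p = 2.55e-15), and A/A cells had 0.0802 of the S/S level. Spint1 had 0.454, 0.138, 0.123 and 0.214 CPM in A/A siControl and 3.66, 3.18, 3.04 and 3.90 CPM in S/S siControl, a log2 fold change of -3.85 (SE 0.212, adjusted p = 1.29e-15). Epcam had 1.82, 1.36, 1.43 and 1.14 CPM in A/A siControl and 9.45, 8.75, 8.15 and 9.34 CPM in S/S siControl, a log2 fold change of -2.62 (SE 0.118, adjusted p = 3.17e-17). In A/A siControl replicate 1, which held the S/S-type RNAs at 6.29%, all 3 genes stood above the other 3 libraries, and without replicates 1 and 2 their log2 fold changes were -4.01 for St14, -4.33 for Spint1 and -2.79 for Epcam, so they were larger without those libraries.

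Prss8 differed little between the genotypes. It had 0.908, 0.988, 0.817 and 0.771 CPM in A/A siControl and 1.04, 1.07, 1.06 and 1.237 CPM in S/S siControl, a log2 fold change of -0.34 (SE 0.149, adjusted p = 0.0465). The libraries separated but the call was marginal and was lost in DESeq2 (adjusted p = 0.0541), with no filter on low counts (0.119) and on leaving out any of 6 libraries singly (0.0584 to 0.134: S/S siControl 2, 3 or 4, or A/A siControl 1, 3 or 4). Tmprss2 had 30.8, 31.9, 29.7 and 27.4 CPM in A/A siControl and 23.7, 23.2, 23.1 and 22.4 CPM in S/S siControl (log2 fold change 0.37, SE 0.0575, adjusted p = 1.40e-06). Spint2 had 262, 285, 283 and 276 CPM in A/A siControl and 175, 181, 174 and 192 CPM in S/S siControl (log2 fold change 0.62, SE 0.0445, adjusted p = 5.26e-13). Without A/A siControl replicates 1 and 2 the log2 fold changes were -0.47 for Prss8 (adjusted p = 0.0351), 0.31 for Tmprss2 (adjusted p = 2.90e-04) and 0.64 for Spint2 (adjusted p = 3.96e-11). Tmprss4, with 5 counts in all in A/A siControl and 1 count in all in S/S siControl, did not pass (adjusted p = 0.254), and both groups were at or under the floor of 3 counts per library, so no fold is given.

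In S/S cells, the rise of St14 and Epcam under siChchd10 was known when the genes were put together, so this comparison is described without a test. Its background was that 28% of 18138 genes passed the test (5076 genes) and 4.23% differed by 2-fold or more in either direction (767 genes, 497 higher and 270 lower). Of the 7 genes 5 were higher by 2-fold or more, Tmprss4 among them on 11 counts against 1. For 6 of 7 every knockdown library lay above every control library, and the share of all genes that separate so was not counted.

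St14 had 11.2, 10.9, 10.8 and 11.7 CPM in S/S siChchd10 and 2.20, 2.48, 2.18 and 2.75 CPM in S/S siControl, a log2 fold change of 2.21 (SE 0.118). Epcam had 33.3, 33.4, 35.5 and 36.8 CPM in S/S siChchd10 and 9.45, 8.75, 8.15 and 9.34 CPM in S/S siControl, a log2 fold change of 1.96 (SE 0.0860). Within each group the libraries of both genes lay close together, far apart from those of the other group. Prss8 had 3.44, 3.11, 2.86 and 3.21 CPM in S/S siChchd10 and 1.04, 1.07, 1.06 and 1.237 CPM in S/S siControl, a log2 fold change of 1.51 (SE 0.124). Spint1 had 8.52, 8.65, 7.97 and 9.80 CPM in S/S siChchd10 and 3.66, 3.18, 3.04 and 3.90 CPM in S/S siControl, a log2 fold change of 1.35 (SE 0.129).

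The other inhibitor and Tmprss2 differed less. Spint2 had 244, 245, 235 and 258 CPM in S/S siChchd10 and 175, 181, 174 and 192 CPM in S/S siControl (log2 fold change 0.45, SE 0.0445), and Tmprss2 had 33.7, 31.1, 27.0 and 30.5 CPM in S/S siChchd10 and 23.7, 23.2, 23.1 and 22.4 CPM in S/S siControl (log2 fold change 0.40, SE 0.0575). Tmprss4 had 1, 0, 1 and 9 counts in S/S siChchd10 and 0, 1, 0 and 0 counts in S/S siControl. With 9 of its 11 counts in replicate 4, the groups overlapped, and the scaled ratio of 10.9 had a 95% exact interval of 1.59 to 469.7 for counting error alone. Its log2 fold change was 2.95 (SE 1.25), and 1.07 without S/S siChchd10 replicate 4.

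**Figure D2:**
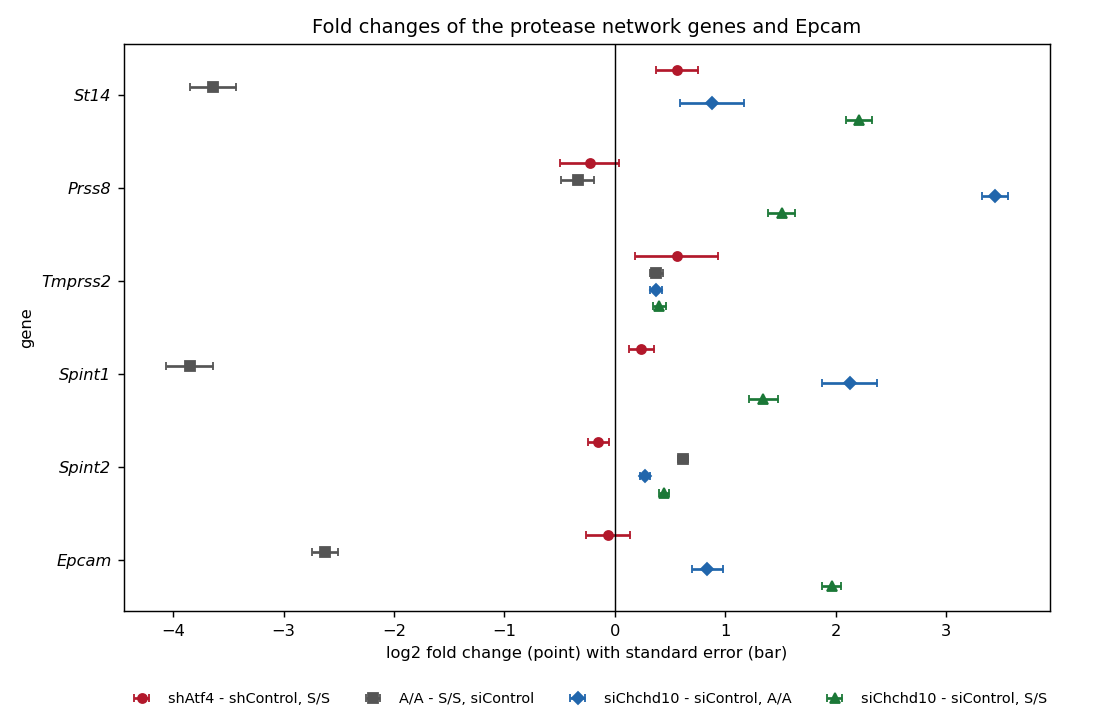
Log2 fold change (point) with its standard error (bar) for 6 of the genes in 4 comparisons; Tmprss4, with few counts, is not drawn. St14, Spint1 and Epcam lie at -2.62 or below between the genotypes and above 0 under siChchd10 in both genotypes, and Prss8 lies at 3.44 in A/A and 1.51 in S/S cells.

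Set side by side, the siChchd10 effects in the 2 genotypes ranked the genes differently. The difference of the effects (A/A minus S/S) contains the S/S comparison and is likewise given without a test, against 9.9% of 18138 genes whose effects differed by 2-fold or more in either direction (1796 genes, 581 higher and 1215 lower in A/A). Prss8 had the larger effect in A/A cells, by a log2 difference of 1.93 (SE 0.179). St14 and Epcam had the smaller effect in A/A cells, at -1.33 (SE 0.337) for St14 and -1.13 (SE 0.165) for Epcam. Spint1 differed by 0.78 (SE 0.295), Spint2 by -0.17 (SE 0.0625) and Tmprss2 by -0.03 (SE 0.0800). Leaving out A/A siControl replicate 1 took St14 (-0.98) and Epcam (-0.97) inside 2-fold and took Spint1 (1.37) past it, with Prss8 at 1.96. Without replicates 1 and 2 the differences were -0.95 for St14, -0.95 for Epcam, 1.28 for Spint1, 2.07 for Prss8, -0.18 for Spint2 and 0.0493 for Tmprss2. The Tmprss4 difference of 1.61 had an SE of 3.03 and could not be told from 0 or from 2-fold.

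The Atf4 comparison asks whether loss of that transcription factor altered these genes in S/S cells. Of the 6 genes tested 0 passed, against 0.538% of 14697 genes (79 genes, 22 higher and 57 lower; edgeR quasi-likelihood test). At an unadjusted p under 0.05 there was 1 of the 6, St14, beside 1549 of all 14697 genes, so this says little of St14. DESeq2 called 0 of the 6 after adjustment. For all 7 genes the libraries of the groups overlapped. With the replicate number as a block, 2969 genes passed, and 2 of the 6 genes were among those called, St14 and Spint1. That block assumes a pairing by number, which correlations of the libraries bore out for replicates 1, 2 and 4 but not for replicate 3.

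St14 had 10.5, 19.2, 18.6 and 17.7 CPM in S/S shAtf4 and 10.6, 11.5, 11.1 and 11.6 CPM in S/S shControl. In the knockdown, replicates 2 to 4 lay above all controls, and replicate 1 lay just below the lowest control. The log2 fold change was 0.56 (SE 0.187, adjusted p = 0.300), 0.53 (adjusted p = 0.00642) with the replicate block and 0.55 (adjusted p = 0.104) without both replicate 4 libraries. Spint1 had 48.0, 48.1, 45.7 and 37.3 CPM in S/S shAtf4 and 40.1, 39.3, 38.8 and 33.4 CPM in S/S shControl. Each knockdown library lay above the control library of the same number. Its log2 fold change was 0.24 (SE 0.113, adjusted p = 0.511), 0.24 (adjusted p = 0.0193) with the replicate block and 0.26 (adjusted p = 0.0487) without both replicate 4 libraries.

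Spint2 had 181, 198, 189 and 168 CPM in S/S shAtf4 and 199, 224, 213 and 180.3 CPM in S/S shControl (log2 fold change -0.15, SE 0.0946, adjusted p = 0.644). Prss8 had 8.04, 8.49, 5.92 and 4.46 CPM in S/S shAtf4 and 9.85, 7.99, 8.42 and 4.84 CPM in S/S shControl (log2 fold change -0.23, SE 0.270, adjusted p = 0.844). The ranges of the groups overlapped for both genes, while within same-numbered libraries Spint2 was lower in the knockdown in 4 of 4 pairs (adjusted p = 0.0535 with the replicate block) and Prss8 in 3 of 4 (0.329). Tmprss2 had 1.92, 1.46, 0.944 and 0.872 CPM in S/S shAtf4 and 1.35, 0.730, 0.659 and 0.584 CPM in S/S shControl (log2 fold change 0.56, SE 0.376, adjusted p = 0.669), and it was higher in the knockdown in 4 of 4 pairs (adjusted p = 0.140 with the replicate block). Epcam had 32.4, 41.2, 38.7 and 28.6 CPM in S/S shAtf4 and 39.6, 42.6, 40.9 and 23.8 CPM in S/S shControl (log2 fold change -0.06, SE 0.197, adjusted p = 0.948). Without both replicate 4 libraries the log2 fold changes were -0.16 for Spint2, -0.24 for Prss8, 0.59 for Tmprss2 and -0.13 for Epcam (adjusted p = 0.183, 0.422, 0.363 and 0.450). Replicate 4 was the lowest of its group for Epcam, Spint1, Spint2, Prss8 and Tmprss2 in both groups. Tmprss4 had 1 count in all in S/S shAtf4 and 0 in S/S shControl, where a count of 0 allows up to 0.0165 CPM over the group. The Y-linked gene Ddx3y, looked at after its values were seen, had 0.644 to 1.34 CPM in S/S shAtf4 against 44.4 to 53.5 CPM in S/S shControl, and what this difference between the cultures contributes to these values was not tested.

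The balance of protease to inhibitor mRNA was taken as the ratio of their CPM per kilobase of merged exons within each library, as a description. The ratio of Prss8 to Spint1 was 13.9, 12.6, 16.1 and 12.7 in A/A siChchd10 and 2.99, 10.7, 9.96 and 5.38 in A/A siControl, against 0.490 to 0.603 in S/S siChchd10 and 0.424 to 0.523 in S/S siControl. In A/A cells there was thus more Prss8 than Spint1 mRNA in all 8 libraries, and in S/S cells of the siRNA table less in all 8. The ratio of St14 to Spint1 was 0.102 to 0.147 in A/A siChchd10 and 0.181 to 0.414 in A/A siControl, and 0.433 to 0.491 in S/S siChchd10 and 0.217 to 0.282 in S/S siControl. Under siChchd10 it was therefore lower than in every control library in A/A cells and higher than in every control library in S/S cells. In A/A siControl the ratios rest on only 16, 8, 3 and 11 counts of St14 and 24, 7, 6 and 10 counts of Spint1. Replicate 1 there also held S/S-type RNA, and whether the lower ratio exceeds counting error was not tested. In the shRNA table the ratio of St14 to Spint1 was 0.0790 to 0.172 in S/S shAtf4 and 0.0954 to 0.125 in S/S shControl.

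The 2 inhibitors also stood in different proportions. The ratio of Spint1 to Spint2 averaged 0.00510 ± 0.000563 in A/A siChchd10 and 0.00141 ± 0.000990 in A/A siControl, 0.0585 ± 0.00290 in S/S siChchd10 and 0.0315 ± 0.00300 in S/S siControl, and 0.401 ± 0.0286 in S/S shAtf4 and 0.306 ± 0.0180 in S/S shControl (SD, n = 4 each). Spint2 was the more abundant per kilobase in all 24 libraries. The values depend on the exon length used: with the length of the longest principal transcript the mean ratio of St14 to Spint1 was 0.242 in A/A siChchd10 and 0.608 in A/A siControl, 0.913 in S/S siChchd10 and 0.499 in S/S siControl. The change of length multiplies a ratio by the same factor in every library, so it bears on the size of the ratio and not on the order of the groups.

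**Figure D3:**
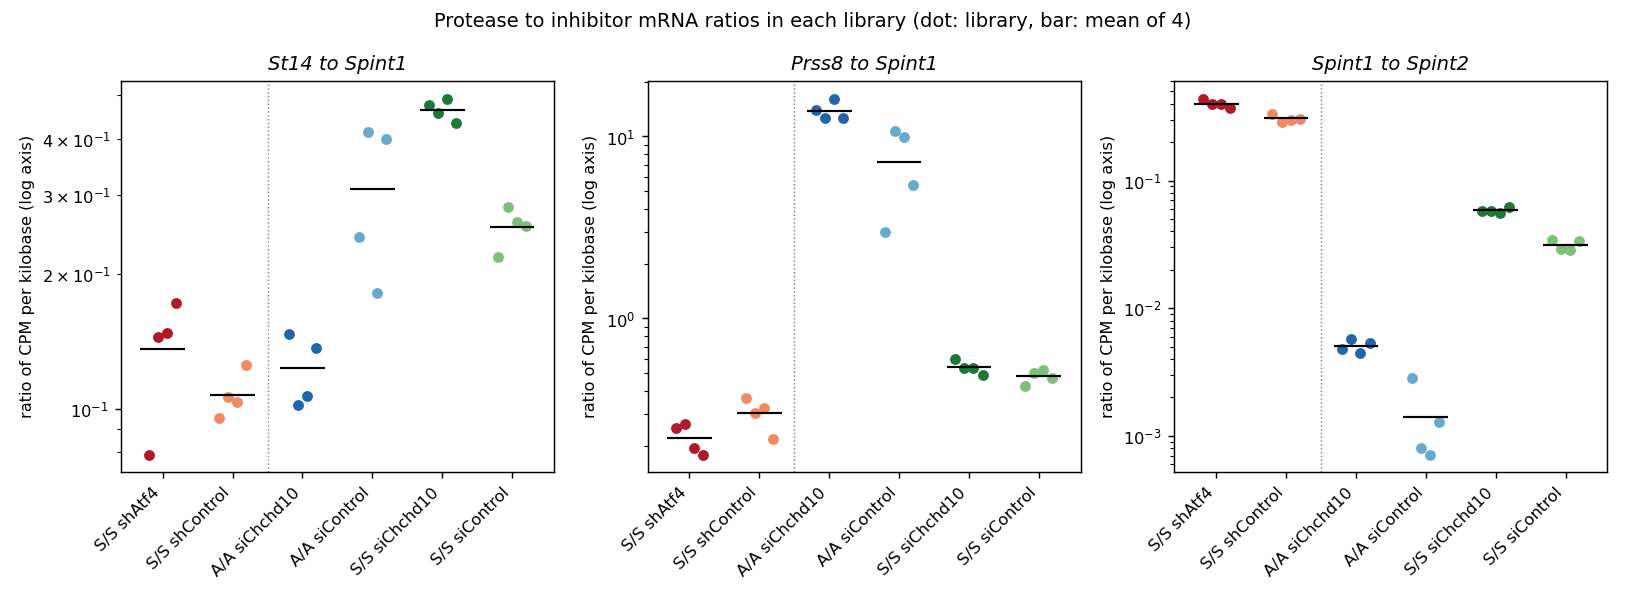
Ratio of CPM per kilobase of merged exons in every library (log axis; bar, mean of 4) for St14 to Spint1, Prss8 to Spint1 and Spint1 to Spint2. Prss8 to Spint1 is above 1 in all A/A libraries and at most 0.603 in S/S libraries of the siRNA table.

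Over the 4 siRNA group means of log2 CPM, each gene centred on its own mean, the 7 genes fell into 3 shapes. St14, Epcam and Spint1 were highest in S/S siChchd10 and lowest in A/A siControl, with centred values of 3.20 and -2.55 for St14, 2.58 and -2.004 for Epcam, and 2.38 and -2.78 for Spint1. The root mean square difference between St14 and Epcam was 0.515, between Epcam and Spint1 0.527 and between St14 and Spint1 0.660 on the log2 scale. The rise of St14 and Epcam in S/S siChchd10 was known when the set was drawn up, so their shared shape is partly built in. Prss8 and Tmprss4 were highest in A/A siChchd10, at 2.01 and 2.64, and differed by 0.647. Tmprss4 passed the filter through that group, so its high place there is no separate result. Tmprss2 and Spint2 were also highest in A/A siChchd10, at 0.37 and 0.40, but stayed within 0.49 of their means in all groups and differed by 0.0950. Prss8 and St14, which encode proteases that activate each other, differed by 2.58.

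**Figure D4:**
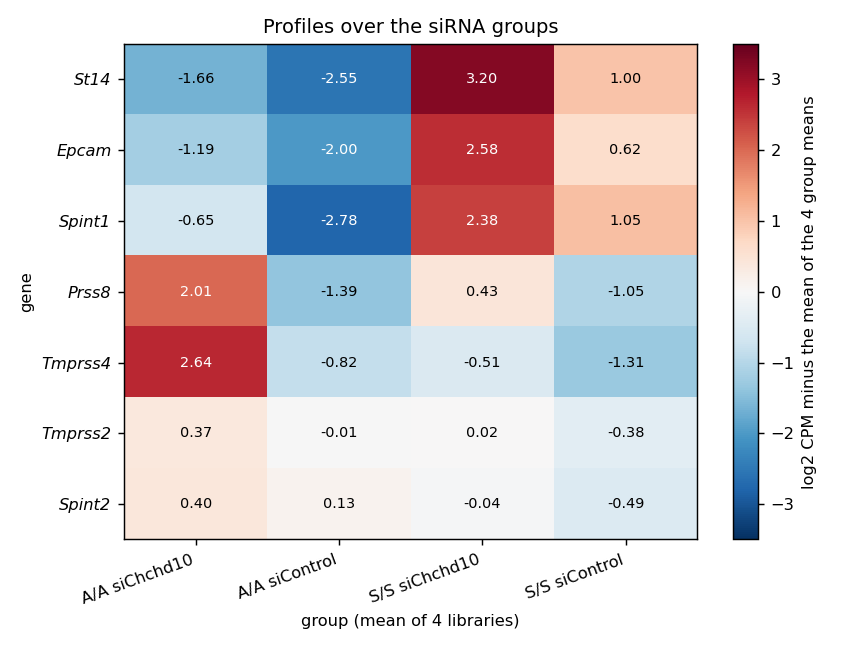
Centred log2 CPM (group mean minus the mean of the 4 siRNA group means) for each gene, printed in each cell and coloured from blue (low) to red (high). St14, Epcam and Spint1 share a maximum in S/S siChchd10, and Prss8 and Tmprss4 one in A/A siChchd10. Tmprss2 and Spint2 are also highest in A/A siChchd10 but vary little.

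By the same measure over 11229 genes, the 5 genes most like St14 were Lama3 (a laminin chain, 0.415), Epcam (0.515), Ecscr (0.619), Lmcd1 (0.636) and Ms4a4b (0.653). The 5 most like Epcam were Lgals2 (a galectin, 0.423), Pdzk1ip1 (0.497), Lmcd1 (0.513), St14 (0.515) and Spint1 (0.527). The nearest to Spint1 were Pdzk1ip1 (0.201), the apolipoprotein gene Apob (0.227) and the complement gene C3 (0.343). Prss8 and Tmprss4 shared their nearest genes, the cytochrome P450 genes Cyp2c70 (0.498 from Prss8 and 0.204 from Tmprss4) and Cyp2c68 (0.507 and 0.250), followed by the prothrombin gene F2 for Prss8 (0.511) and the angiotensinogen gene Agt for Tmprss4 (0.432). Tmprss2 lay nearest to Echdc3 (0.0190), Cystm1 (0.0284) and Fam161b (0.0312), and Spint2 to Hexim2 (0.0225), Dcxr (0.0351) and Hdhd3 (0.0364). These distances rest on 4 points that share libraries and scaling, and small distances are easier to reach for genes that vary little. They include the S/S values known when St14 and Epcam were chosen and the group that let Tmprss4 pass. The closeness of St14 to Epcam and of Tmprss4 to Prss8 is therefore description only.

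Genes that work with the network were taken from 8 lists of 107 genes. Of the 81 tested in the siRNA table, 27 rose and 25 fell under siChchd10 in A/A cells, 30 rose and 37 fell in A/A against S/S cells, and 37 rose and 9 fell under siChchd10 in S/S cells, beside the shares of all genes given above. Of the 69 tested in the shRNA table, 2 rose and 1 fell under shAtf4. Over all genes tested, 53.7%, 70.2% and 28% passed in the siRNA comparisons, in that order, and 0.538% under shAtf4. These shares stand beside the counts of every list below.

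The other transmembrane proteases were mostly near the limit of detection, and 7 of 16 were tested. Tmprss6, which cuts hemojuvelin in liver, rose under siChchd10 in S/S cells by 1.69 (SE 0.162, adjusted p = 3.74e-09), to a mean of 3.53 CPM in S/S siChchd10 against 1.09 CPM in S/S siControl. Hepsin (Hpn) rose in A/A siChchd10 by 2.30 (adjusted p = 1.53e-04) at 0.308 CPM against 0.0590 CPM in A/A siControl, and Tmprss11f fell there by 1.85 on the log2 scale (adjusted p = 1.62e-05). Of 6 anchored or secreted tryptase-like genes tested, 2 fell in A/A siChchd10, among them Prss22, the tryptase epsilon gene, which fell by 0.91 (adjusted p = 3.62e-09). Of 9 other genes listed as inhibitors or as members of inhibitor families, 5 rose and 3 fell in A/A siChchd10. Whether their products inhibit these proteases was not tested, so the counts are no measure of inhibition. Serpinb5, which encodes the serpin maspin, was higher by 2.57 (adjusted p = 5.28e-10) and Serpinf2, which encodes alpha-2-antiplasmin, by 2.07 (adjusted p = 5.14e-14). In S/S siChchd10 4 rose and 0 fell, with Serpinb5 higher by 1.98 (adjusted p = 2.35e-09). Serpine2, which encodes a protease nexin that inhibits prostasin, had 2.63, 0.336, 0 and 0 CPM in A/A siControl against 46.9 to 49.6 CPM in S/S siControl (adjusted p = 6.83e-08), so that its counts in A/A siControl stood in replicates 1 and 2, the libraries with S/S-type RNA.

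Among substrates and their receptors, the counts that rose and fell under siChchd10 were unlike in the 2 genotypes, though some genes rose in both. In A/A cells 3 of 13 rose and 7 fell (median log2 fold change -0.37), beside 53.7% of all genes that passed. In S/S cells 9 rose and 1 fell (median 0.28), beside 28% of all genes. The difference of the effects passed the test for 9 of the 13, 1 higher and 8 lower in A/A cells, beside 35.6% of all 18138 genes (6461). F2rl1, the gene of PAR2, fell by 0.37 with siChchd10 in A/A (adjusted p = 3.04e-07) but rose by 0.33 in S/S (adjusted p = 1.58e-06), with 17.8 CPM in A/A siChchd10 against 22.9 CPM in A/A siControl and 49.9 CPM in S/S siChchd10 against 39.7 CPM in S/S siControl. The difference of these effects was -0.70 (SE 0.0662, adjusted p = 4.10e-09). Egfr fell by 0.58 with siChchd10 in A/A (adjusted p = 2.33e-07) but rose by 0.36 in S/S (adjusted p = 1.41e-05), with a difference of -0.94 (adjusted p = 1.11e-08). The sodium channel gene Scnn1a, whose product prostasin-type proteases activate, rose in both, by 1.39 in A/A (adjusted p = 5.09e-13) and 0.89 in S/S cells (adjusted p = 4.37e-08). Scnn1g was higher in A/A than in S/S siControl cells by 7.35 (adjusted p = 5.61e-24), with 9.56 CPM in A/A siControl and 0.0548 CPM in S/S siControl. Mst1r, the receptor for macrophage-stimulating protein, rose in S/S siChchd10 by 1.46 (adjusted p = 6.33e-06).

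Among 18 partners of EPCAM, and proteases that cut it, 9 rose and 1 fell in A/A siChchd10, 9 rose and 7 fell in A/A against S/S siControl, and 8 rose and 1 fell in S/S siChchd10. The shares of all genes that passed were 53.7%, 70.2% and 28% in the same order. The first 2 counts lie near those shares and say little of these genes. Cldn7, whose product EPCAM stabilises, had 2.79, 2.47, 2.28 and 2.38 CPM in S/S siChchd10 and 1.06, 0.648, 0.722 and 0.746 CPM in S/S siControl. All knockdown libraries lay above all controls, at a log2 fold change of 1.65 (SE 0.236, adjusted p = 3.91e-06). In A/A cells Cldn7 had 0.265, 0.388, 0.234 and 0.118 CPM with siChchd10 and 0.510, 0.158, 0.184 and 0.150 CPM with siControl, a log2 fold change of -0.08 (adjusted p = 0.875). The highest control, at 0.510 CPM, was replicate 1, the library with the largest share of S/S-type RNA. The fold change includes that library, so neither its sign nor a lack of change in A/A cells is settled. Between genotypes Cldn7 fell by 1.62 on the log2 scale (adjusted p = 5.41e-05). Cldn4, another claudin, rose in S/S siChchd10 by 1.09 (adjusted p = 4.27e-04) and fell by 4.58 on the log2 scale in A/A against S/S siControl cells (adjusted p = 1.60e-09). Tspan8, a tetraspanin that associates with EPCAM, rose in both knockdowns, by 0.71 in A/A (adjusted p = 2.92e-12) and 0.33 in S/S cells (adjusted p = 1.16e-05).

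Transcription factors of the epithelial state were read last, beside the promoter letters shown above. Of 18 that promote it, 7 rose and 4 fell in A/A siChchd10, 9 rose and 7 fell in A/A against S/S siControl, and 10 rose and 1 fell in S/S siChchd10. Of all genes tested, 53.7%, 70.2% and 28% passed in the same order. Grhl3 rose in S/S siChchd10 by 1.49 (adjusted p = 1.02e-07) and Grhl2 by 0.47 (adjusted p = 0.0317), and both were lower in A/A than in S/S siControl cells, by log2 fold changes of -3.33 (adjusted p = 2.79e-11) and -2.45 (adjusted p = 4.64e-11). In A/A siChchd10 neither passed (0.77 for Grhl3, adjusted p = 0.114, and 0.27 for Grhl2, adjusted p = 0.410). Of 5 repressors tested, 0 rose and 4 fell in both siChchd10 comparisons, and 0 rose and 3 fell between genotypes, beside the same shares of all genes. Zeb2 had a mean of 9.37 CPM in A/A siChchd10 against 14.1 CPM in A/A siControl (log2 fold change -0.59, adjusted p = 8.87e-10), and 20.9 CPM in S/S siChchd10 against 30.1 CPM in S/S siControl (-0.53, adjusted p = 5.11e-09). It also fell by 1.09 on the log2 scale in A/A against S/S siControl cells (adjusted p = 7.12e-17). Under shAtf4, Twist2 rose by 1.65 (adjusted p = 0.0486) and, of the epithelial markers, Krt7 rose by 1.49 (adjusted p = 0.0442) and Cdh1 fell by 0.67 on the log2 scale (adjusted p = 0.0202). Whether any of these factors acts on the 7 genes was not tested, and no promoter window was at hand for St14, Prss8 and Tmprss4.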

How the data were processed

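The deposited values are raw counts for each gene, in 1 table of 8 shRNA libraries and 1 of 16 siRNA libraries, and 0 columns had no sample. Per the labels' protocols, libraries followed a stranded total RNA kit, although the molecule is named as polyA RNA. Per the submitters' processing notes mm10 is the genome build named, and the tool named is DESeq2 1.24.0; the sources used here give no aligner, counter, strand setting or annotation. The deposited counts went into edgeR 4.0.16 under R 4.3.3 (filterByExpr, TMM, robust quasi-likelihood test), with Benjamini-Hochberg adjustment over all genes of a table and a threshold of 0.05. Each table was scaled and fitted alone, the siRNA table with 1 term per group. "Rose" and "fell" mean past that threshold. Levels are CPM, divided by kilobases of merged exons (GENCODE vM21) for comparison between genes. Code was tested on simulated data.

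The 7 genes, the lists, the rule for named genes (members, targets, listed genes past the threshold, and the 3 or 5 nearest profiles among genes with an average log2 CPM of at least 1, prior count 2) and the tests were chosen with earlier results of these data known. Ddx3y, the ACCGGT core and the libraries left out were picked after values were seen. Alternatives were DESeq2 1.42.0, RLE scaling, no filter, a replicate block and leaving out libraries. Deviations of same-numbered libraries correlated at 0.450, 0.403, 0.241 and 0.789 in the shRNA table, against -0.171 to 0.157 in the siRNA table. S/S shControl replicates 1, 2 and 4 correlated best with S/S shAtf4 libraries of their own number, but replicate 3 did so with replicate 2. Pairing by number is thus only partly borne out in the shRNA table, and not in the siRNA table. The listed genes Tmprss11bnl and Prss21, and promoters of St14, Prss8 and Tmprss4, were not analysed here. Intervals and floors cover counting error only.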

Additional observations from a re-analysis of the deposited data

Results flagged for a closer look

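In 5 of 41 sets of 4 libraries examined, 1 library lay apart from the other 3 by more than Dixon's 95% limit for its share of the range, which chance alone passes in about 1 of 20 groups. St14 in S/S shAtf4 replicate 1 was at 10.5 CPM, the nearest of the others being at 17.7 CPM, so that the group overlapped S/S shControl through this library. Without it the log2 fold change was 0.73 (edgeR, adjusted p = 0.0740). Epcam in S/S shControl replicate 4 was at 23.8 CPM, the nearest being at 39.6 CPM. Without it the log2 fold change of Epcam was -0.22 (edgeR, adjusted p = 0.354). Tmprss4 passed that limit in 3 groups of few counts: S/S shAtf4 replicate 1 at 0.0712 CPM with the others at 0, S/S siControl replicate 2 at 0.0185 CPM with the others at 0, and S/S siChchd10 replicate 4 at 0.188 CPM with the nearest at 0.0208 CPM. The first 2 of these were 1 count each, and the last was 9 counts. A set with 1 count in 1 library and 0 in the others passes that limit by arithmetic. The rate of 1 in 20 does not apply to such sets.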

How the results depend on the processing

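Spint1, Spint2, Epcam and Tmprss2 kept their direction and their call under every alternative run in A/A siChchd10 and in A/A against S/S siControl, as did Prss8 in A/A siChchd10 and St14 between genotypes. The exceptions were St14 in A/A siChchd10 without A/A siControl replicate 3 and Prss8 between genotypes, both given above. In A/A siChchd10 St14 was called in 12 of 13 alternatives, and Tmprss4, which passed the filter through that group, is not counted. Between genotypes the number of genes called over the alternatives was 5 to 6. In S/S siChchd10, 5 stayed past 2-fold throughout. Tmprss4 was among them, but at 1.07 (SE 1.42) without S/S siChchd10 replicate 4 and on few counts, so its place there is not settled. The number past 2-fold in the difference of effects was 3 to 4. With the replicate block 2 of the 7 genes, and without both replicate 4 libraries 1, passed under shAtf4, against 0 otherwise. The count of all genes called under shAtf4 was 79, and 491 in DESeq2, 2969 with the replicate block, 1719 without both replicate 4 libraries and 13 to 536 on leaving out 1 library, so calls in this table rest on few libraries and the cause was not tested. The replicate block changed no call in A/A siChchd10, and ended that of Prss8 between genotypes (adjusted p = 0.0550), in a table whose numbers do not pair the samples.

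Some values near 0 reversed on leaving out libraries. Epcam under shAtf4 ran over -0.220 to 0.0263 without 1 library (0.0185 without S/S shControl replicate 2). The difference of the Tmprss2 effects ran over -0.0843 to 0.0329 without 1 library (0.0132 without A/A siControl replicate 2) and was 0.0493 without A/A siControl replicates 1 and 2. Tmprss4 in S/S cells moved to 4.56 without S/S siControl replicate 2. Depth limits Tmprss4 in most groups and St14 and Spint1 in A/A cells.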
